A study of Mus musculus with 24 samples.

Results

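The genes examined here encode the protein complexes of oxidative phosphorylation. They were chosen by name: nuclear genes whose symbol begins with Nduf, Cox4 to Cox8, Uqcr or Atp5, the Sdha, Sdhb, Sdhc and Sdhd genes, and the mitochondrially encoded mt-Nd, mt-Co, mt-Cytb and mt-Atp genes, leaving out 6 symbols that carry -ps. The rule used no measured value and found 105 of the 53715 genes in the table, 92 nuclear and 13 mitochondrially encoded. Grouped by symbol, the nuclear genes were 38 of complex I, 7 assembly factors of complex I, 4 of complex II, 8 of complex III, 18 of complex IV and 17 of complex V. Counts by complex follow the symbol throughout, so that Ndufa4 is counted in complex I and Atp5sl, whose RefSeq symbol is Dmac2, in complex V. RNA sequencing had been done on Ly6Chi and Ly6Clo monocytes sorted from peripheral blood (PB) of C57BL/6 mice 8 to 10 weeks old. Wild type (wt) mice were compared with N2ΔMy mice, in which Notch2 is conditionally deleted in myeloid cells through Lyz2-Cre, a Cre expressed from the lysozyme M locus. The sort gate took GFP+ cells of both genotypes, the GFP coming from the Cx3cr1-GFP reporter allele, and was negative for lineage markers that include Ly6G and positive for CD11b and CD115. Skin was treated daily with Sham creme (Vaseline) or with 50 mg of Aldara, a creme with 5% imiquimod (IMQ, an agonist of Toll-like receptor 7), and cells were sorted on day 5. Ly6Chi cells were taken from wt and N2ΔMy mice after Sham or after IMQ, and Ly6Clo cells from both genotypes after IMQ only, which gave 6 groups of 4 libraries. The labels number the libraries 1 to 4 in each group but do not tie a number to an animal or state whether animals were pooled, so p-values measure the spread between these libraries.

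Oxidative phosphorylation takes place in the inner mitochondrial membrane. Complexes I and II pass electrons from NADH and succinate to ubiquinone, complex III passes them on to cytochrome c and complex IV to oxygen, and complex V uses the proton gradient built by complexes I, III and IV to make ATP. Most subunits are encoded in the nucleus and imported, while a small core of complexes I, III, IV and V, but none of complex II, is encoded by mitochondrial DNA. Complexes I, III, IV and V are therefore assembled from the products of both genomes. Monocytes and macrophages are known to shift between glycolysis and respiration when they are activated or mature.

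Values are normalized counts, that is, counts scaled between libraries by the authors and rounded to whole numbers. Their sums were 13273508 to 14651770 per library, and the reads behind them, inferred from the steps between low values, were 9522720 to 19759572. Notch2 itself was lower in N2ΔMy libraries, with means of 9298 against 15210 in Ly6Chi cells after Sham, 7616 against 13910 in Ly6Chi cells after IMQ and 10750 against 17770 in Ly6Clo cells, and no library overlapped, so that transcript remained in all N2ΔMy libraries. Of the subset markers, 5 Ly6Chi genes summed to 524 to 1892 in wt Ly6Clo libraries, 7117 to 10009 in N2ΔMy Ly6Clo libraries and 55152 to 81724 in the Ly6Chi libraries, and 7 Ly6Clo genes summed to 101990 to 123945, 56109 to 75228 and 13197 to 33704 in the same order. Of the lists for other blood cells, T and NK cell genes summed to 61 or less per library, B cell genes to 55 to 176, platelet genes to 31 to 337, dendritic cell genes to 77 to 1387 and erythroid genes to 0 to 1573. Library labels fall into 2 numbering series, replicates 1 and 2 of every group in the first and replicates 3 and 4 in the second, and what the numbering stands for is not stated. The oxidative phosphorylation genes differed between these series inside the groups: the median log2 difference of the second series from the first was 0.32 over the 84 nuclear genes tested, with 65 of them higher, against -0.02 over all 11230 genes tested. This difference was 0.77 for complex IV, 0.46 for complex V and 0.38 for complex I, and -0.13 for complex II and -0.08 for complex III. Both series were present in equal number in every group, and values within each series are given for the 3 kinds of comparison between groups.

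Of the 13 mitochondrially encoded genes, 7 were measured at high level and 6 at or near 0. Mt-Co1, the catalytic core of complex IV, had a mean of 20320 over the 24 libraries, mt-Nd5 of 14590 and mt-Cytb, the cytochrome b of complex III, of 11660. In contrast, mt-Co2, mt-Co3, mt-Atp8 and mt-Nd4l were listed at 0 in all 24 libraries, mt-Atp6 reached 1 at most and mt-Nd3 ranged from 0 to 27. These genes lie beside the others on the same circular chromosome, mt-Co2 at M:7013-7696 and mt-Co3 at M:8607-9390 on the plus strand of GRCm38.p6. To see what marks them, every stretch of 75 bases, the length of a read, was looked up in all other transcripts of GENCODE release M21 on both strands. For mt-Co3, 709 of 710 stretches also occurred in a transcript of the nuclear genome. The counts were 607 of 610 for mt-Co2, 604 of 607 for mt-Atp6, 220 of 223 for mt-Nd4l and 268 of 274 for mt-Nd3. Among the genes with high values the share was 61.5% for mt-Nd4, 39.8% for mt-Co1, 5.71% for mt-Nd2 and 1.66% for mt-Nd5, and no stretch of mt-Nd1, mt-Cytb or mt-Nd6 was found elsewhere. Mt-Atp8 went against this order, with 0 of its 130 stretches in a nuclear transcript and 0 in every library; in the annotation 233 bases without a transcript separate the nuclear copies of its neighbours mt-Atp6 and mt-Co2, and these bases were not searched. How reads with several matching positions were counted is not given in the sources used here, and its part in the zeros was not tested. Levels of mt-Nd4 and mt-Co1 are given as deposited, with 802 of 1304 and 586 of 1471 of their stretches shared with a nuclear transcript.

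**Figure D1:**
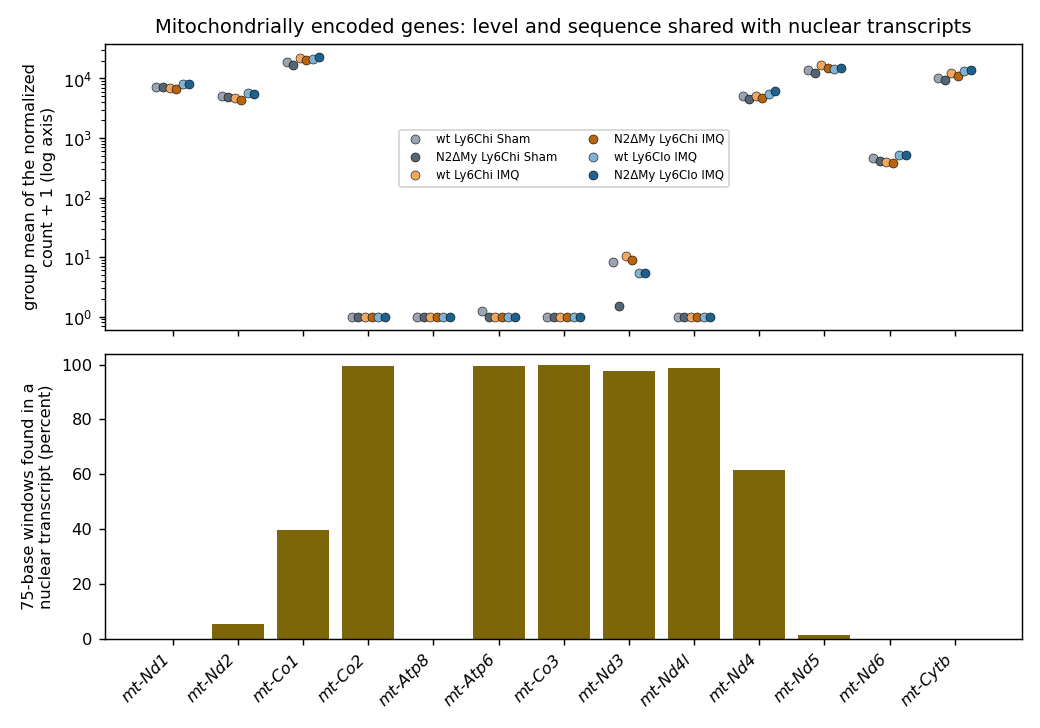
The 13 mitochondrially encoded genes in chromosome order, with the group mean of 4 libraries as normalized count + 1 on a log axis (top) and the percent of their 75-base stretches that also occur in a transcript of the nuclear genome (bottom). The 5 genes with shares of 97.8% to 99.9%, and mt-Atp8 with 0%, lie at or near 0 counts, and the other 7 genes lie above 300.

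Most of these stretches belonged to 7 pseudogenes that lie side by side on chromosome 1, in 4663 bases from 24611535 to 24616197. The copy of mt-Co2 was identical at 681 of 681 aligned bases, that of mt-Atp6 at 678 of 678 and that of mt-Co3 at 783 of 783. The copies themselves had means of 0.08333 to 19.62 normalized counts over the 24 libraries. Another copy of mt-Co2 on chromosome 2 differs from it at single bases. The first 75 bases of mt-Co2 are shown with both copies, because a read of this length from mt-Co2 and one from the chromosome 1 copy are the same letters, together with the first 75 bases of mt-Cytb, which no other transcript holds. Capitals mark bases that differ from mt-Co2, C25T and G57A counted from 1 at the 5′ end of the stretch.
mt-Co2, chrM:7013-7087, plus strand: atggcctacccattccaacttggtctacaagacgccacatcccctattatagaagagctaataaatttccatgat
copy in Gm28661, chr1:24615491-24615565, minus strand: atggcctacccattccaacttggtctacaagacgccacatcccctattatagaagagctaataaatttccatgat
copy in Gm13341, chr2:22587888-22587962, minus strand: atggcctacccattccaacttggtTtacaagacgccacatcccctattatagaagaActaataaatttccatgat
mt-Cytb, chrM:14145-14219, plus strand: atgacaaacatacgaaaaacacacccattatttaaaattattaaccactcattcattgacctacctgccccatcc

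Per kilobase of exon 6 of the mitochondrially encoded genes had the highest levels of the group. The length used is that of all annotated exons of a gene merged, not that of the transcript expressed, so ranks per kilobase depend on the annotation. Means over 24 libraries were 13150 normalized counts per kilobase for mt-Co1, 10190 for mt-Cytb, 7997 for mt-Nd5, 7730 for mt-Nd1, 4879 for mt-Nd2 and 3722 for mt-Nd4. Mt-Nd6, the one member of the group encoded on the other strand of the mitochondrial chromosome, was at 857 per kilobase, below several nuclear genes. The highest nuclear genes were Cox8a at 1931, Cox6a1 at 1513, Atp5h at 1439, Cox4i1 at 1151, Cox6b1 at 1092 and Atp5c1 at 1038 normalized counts per kilobase. Libraries were made from total RNA, and the mitochondrial ribosomal RNAs mt-Rnr1 and mt-Rnr2 held group means of 1.99% to 2.5% and 3.95% to 4.84% of all normalized counts.

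Several subunits of complexes IV and V are encoded by more than one gene, and levels of these forms differed widely. For the c subunit that forms the rotor ring of complex V, whose 3 genes give the same mature protein, Atp5g3 was at 203.4 normalized counts per kilobase against 37.91 for Atp5g2 and 33.32 for Atp5g1. Merged exons were 2181, 1675 and 4912 bases long in this order. Mean counts before division by length were 443.7, 63.5 and 163.7, so the order of Atp5g2 and Atp5g1 depended on the length used. Cox4i1, the common form of subunit IV, was at 1151 per kilobase and Cox4i2, known from lung, at 0.3701. Of the forms known from heart and skeletal muscle, Cox6a2 was at 2.083 per kilobase against 1513 for Cox6a1, Cox7a1 at 7.944 against 479.8 for Cox7a2, and Cox8b was listed at 0 in all 24 libraries while Cox8a was at 1931. The testis-type Cox7b2 and Cox8c and the complex I relative Ndufa4l2 were also listed at 0 throughout. Cox6b2, a form of subunit VIb known from testis, was present at 51.48 per kilobase against 1092 for Cox6b1. Cox5a and Cox5b, which encode different subunits of complex IV despite their names, were at 228.7 and 550.1 per kilobase. Altogether 8 nuclear genes never reached 50 (the 7 named at or near 0 and Atp5s, at 24 at most), and 84 nuclear and 7 mitochondrially encoded genes passed this filter and were tested.

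Within a library, the 92 nuclear genes together held 0.2875% to 0.5679% of all normalized counts. Group means were 0.357% ± 0.046 (SD, n = 4) in wt and 0.383% ± 0.0615 in N2ΔMy Ly6Chi cells after Sham, 0.45% ± 0.08 and 0.483% ± 0.0892 in Ly6Chi cells after IMQ, and 0.335% ± 0.0428 and 0.366% ± 0.0511 in Ly6Clo cells after IMQ. Inside each library series and genotype, both Ly6Chi IMQ libraries lay above both Sham libraries, and both Ly6Clo libraries lay below both Ly6Chi IMQ libraries. In wt cells of the first series, for example, the shares were 0.3131% and 0.3216% after Sham, 0.3713% and 0.4097% after IMQ, and 0.2875% and 0.3157% in Ly6Clo cells. The 13 mitochondrially encoded genes held 0.3286% to 0.7076%, and the groups overlapped between treatments, subsets and genotypes.

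**Figure D2:**
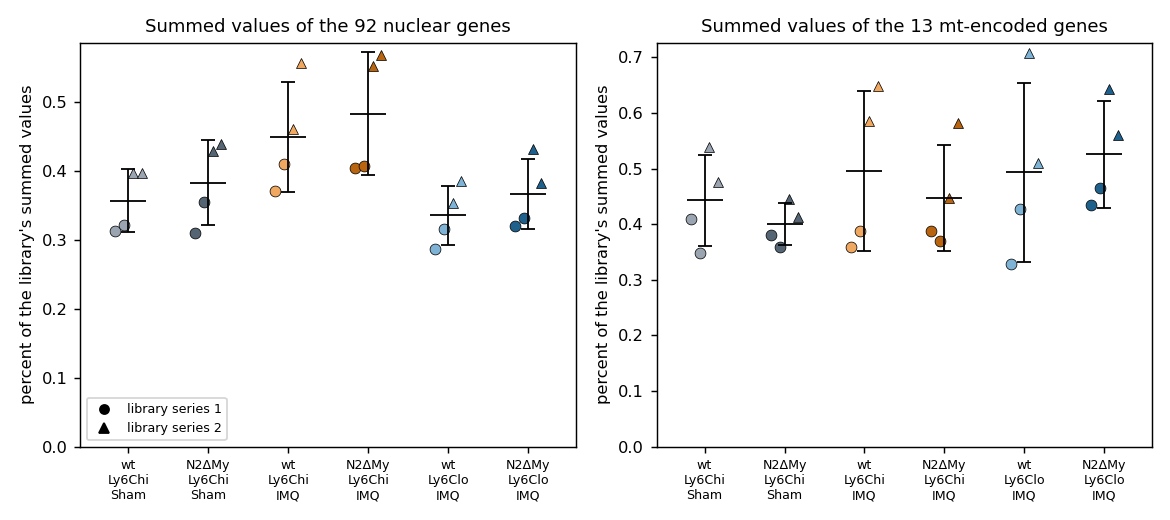
Summed normalized counts of the 92 nuclear genes (left) and of the 13 mitochondrially encoded genes (right) as percent of the library's total, per library (circles, library series 1; triangles, library series 2), with mean and SD of 4 libraries per group. The nuclear share runs from 0.335% in wt Ly6Clo cells to 0.483% in N2ΔMy Ly6Chi cells after IMQ, and series 2 lies above series 1 in every group.

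To ask how systemic inflammation bears on these genes in circulating Ly6Chi monocytes, IMQ-treated mice were compared with Sham-treated mice. Nuclear genes were higher after IMQ by a median log2 fold change of 0.36 in wt cells (1.28-fold, quartiles 0.22 and 0.44) and of 0.36 in N2ΔMy cells, against 0.01 over all genes in both genotypes. In wt cells 79 of the 84 nuclear genes were higher and in N2ΔMy cells 80. The 7 mitochondrially encoded genes tested went both ways, with medians of -0.01 (0.03 after quantile normalization) and 0.07, single genes between -0.23 and 0.30, and no call with or without the replicate block. Their summed share was 0.443% after Sham and 0.496% after IMQ in wt and 0.40% and 0.447% in N2ΔMy cells, with SDs of 0.0378 to 0.143, and the difference from the nuclear genes was not tested. With calls made at an adjusted p of 0.05 or below (limma, Benjamini-Hochberg over all genes), 12 genes rose and 0 fell in wt cells, 13.2% of the 91 tested, while 6.95% of all genes rose and 8.65% fell. In N2ΔMy cells 10 rose and 0 fell, 11.0%, against 6.73% and 7.02% of all genes. Because same-numbered libraries, which also share a library series, varied together, a model with the replicate number as a block was fitted as well. It called 41 genes higher in wt cells and 38 in N2ΔMy cells and none lower, against 12.6% and 10.4% of all genes called higher and 13.7% and 9.83% called lower. The changes were small: 3 and 2 of the called genes also reached a log2 fold change of 0.6, against 4.43% and 4.15% of all genes. In sorted bulk samples, fewer cells of a type and less RNA per cell cannot be told apart.

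Atp5j (chromosome 16, 84827866 to 84835625, minus strand), coupling factor 6 of the stalk that holds complex V together, had the smallest adjusted p of the group in both genotypes. In wt Ly6Chi cells its normalized counts were 1176, 1146, 1155 and 1161 after Sham and 1530, 1647, 1567 and 2109 after IMQ. In N2ΔMy cells they were 1181, 1235, 1169 and 1217 after Sham and 1596, 1811, 2147 and 2136 after IMQ. Every IMQ library lay above every Sham library of its genotype. The log2 fold change was 0.55 with a standard error (SE) of 0.10 in wt (adjusted p = 0.0052) and 0.67 with an SE of 0.10 in N2ΔMy cells (adjusted p = 0.0021). The exons of Atp5j overlap those of Gabpa on the opposite strand, whose mean was 1149 against 1393 for Atp5j, and the strand setting of the authors' counting is not given in the sources used here. Atp5g3, the main gene of the c ring, rose beside it, from 370, 382, 311 and 384 to 500, 506, 463 and 620 in wt cells (log2 fold change 0.53, SE 0.12, adjusted p = 0.0164) and by 0.56 in N2ΔMy cells (SE 0.12, adjusted p = 0.0112). Of the other c-ring genes, Atp5g1 differed by 0.57 and 0.47 and Atp5g2 by 0.10 and 0.13, and neither passed the test (adjusted p = 0.145, 0.403, 0.898 and 0.866), although Atp5g1 was called in wt cells with the replicate block (adjusted p = 0.0266).

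In complex I as grouped by symbol, 5 of 37 genes rose in wt and 6 of 37 in N2ΔMy cells (16 and 13 with the replicate block). Ndufv1 (chromosome 19, 4007497 to 4012806, minus strand), the flavoprotein that takes electrons from NADH, rose in both. Its normalized counts were 549, 545, 513 and 543 after Sham and 714, 707, 683 and 777 after IMQ in wt cells, and 465, 596, 531 and 530 against 772, 738, 817 and 802 in N2ΔMy cells. No library overlapped between treatments, and the log2 fold changes were 0.42 (SE 0.09, adjusted p = 0.00811) and 0.56 (SE 0.10, adjusted p = 0.00418). Ndufv2, its iron-sulfur partner in the NADH-binding tip, rose by 0.56 in wt cells (SE 0.16, adjusted p = 0.041) and was at 0.30 in N2ΔMy cells (SE 0.22, adjusted p = 0.414). Of the accessory subunits, Ndufa11 rose by 0.76 in wt cells, from a mean of 273.8 to 469.2 (SE 0.16, adjusted p = 0.0104), and was at 0.61 in N2ΔMy cells (adjusted p = 0.0668, and 0.00819 with the block). Ndufb2 rose by 0.74 in N2ΔMy cells, from 107.2 to 177.2 (SE 0.21, adjusted p = 0.0468), and was at 0.43 in wt (adjusted p = 0.26). Exons of Ndufb2 overlap Braf on the opposite strand, which had a mean of 1134 against 132. Ndufb11, another of them, rose from 543, 632, 503 and 507 to 826, 804, 756 and 854 in N2ΔMy cells (log2 fold change 0.57, SE 0.10, adjusted p = 0.00427), while the wt libraries overlapped, at 585, 502, 472 and 712 after Sham and 638 to 841 after IMQ (0.36, SE 0.14, adjusted p = 0.115, and 0.0122 with the replicate block). Ndufa4, named after complex I but known to sit in complex IV, rose by 0.63 in wt cells (SE 0.15, adjusted p = 0.0164) and was at 0.46 in N2ΔMy cells (SE 0.23, adjusted p = 0.241). Ndufaf7, a methyltransferase needed to assemble complex I, was the assembly factor that rose, in wt cells from 383, 379, 317 and 328 to 556, 552, 441 and 459 (log2 fold change 0.51, SE 0.12, adjusted p = 0.0183, against 0.39 in N2ΔMy cells with adjusted p = 0.0671, and 0.0317 with the block), and its exons overlap no other gene.

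In complexes III and IV a few subunits passed the test in each genotype, and none of complex II did without the replicate block. With it 2 of the 4 complex II genes were called in each genotype: Sdhb, its iron-sulfur subunit, at 0.39 and 0.44 (adjusted p = 0.00384 and 0.00378, 0.0822 and 0.0616 without), and the membrane anchor Sdhc at 0.38 and 0.40 (adjusted p = 0.0363 and 0.0436, 0.0948 and 0.112 without). Uqcrc2, a core protein of complex III, differed by 0.38 in wt and 0.31 in N2ΔMy cells (SE 0.11 and 0.10, adjusted p = 0.0355 and 0.0612, and 0.0232 and 0.0486 with the replicate block). Uqcrc1, the other core protein, differed by 0.37 and 0.44 (SE 0.16 and 0.13, adjusted p = 0.161 and 0.0436, and 0.0155 and 0.00282 with the block), so that both passed in both genotypes with the block. Cox5a, a nuclear subunit of complex IV, rose in wt cells from 248, 271, 337 and 278 to 414, 390, 567 and 601 normalized counts (log2 fold change 0.78, SE 0.17, adjusted p = 0.0098) and was at 0.45 in N2ΔMy cells (SE 0.24, adjusted p = 0.275, and 0.0404 with the block). Cox5b (chromosome 1, 36691449 to 36693681, plus strand), the zinc-binding subunit, rose by 0.53 in both genotypes (SE 0.15, adjusted p = 0.0339 and 0.0457), although single libraries overlapped: 854, 747, 679 and 693 after Sham and 1114, 1304, 790 and 1136 after IMQ in wt cells. Complex IV had a median log2 fold change of 0.52 in wt and 0.40 in N2ΔMy cells, with 3 and 1 of 12 genes called, and 8 of 12 in each with the replicate block. Cox6a1 is an example of the difference that the block made: it was higher by 0.64 in the first and 0.75 in the second library series of wt cells, with an adjusted p of 0.27 without and 0.000275 with the block.

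**Figure D3:**
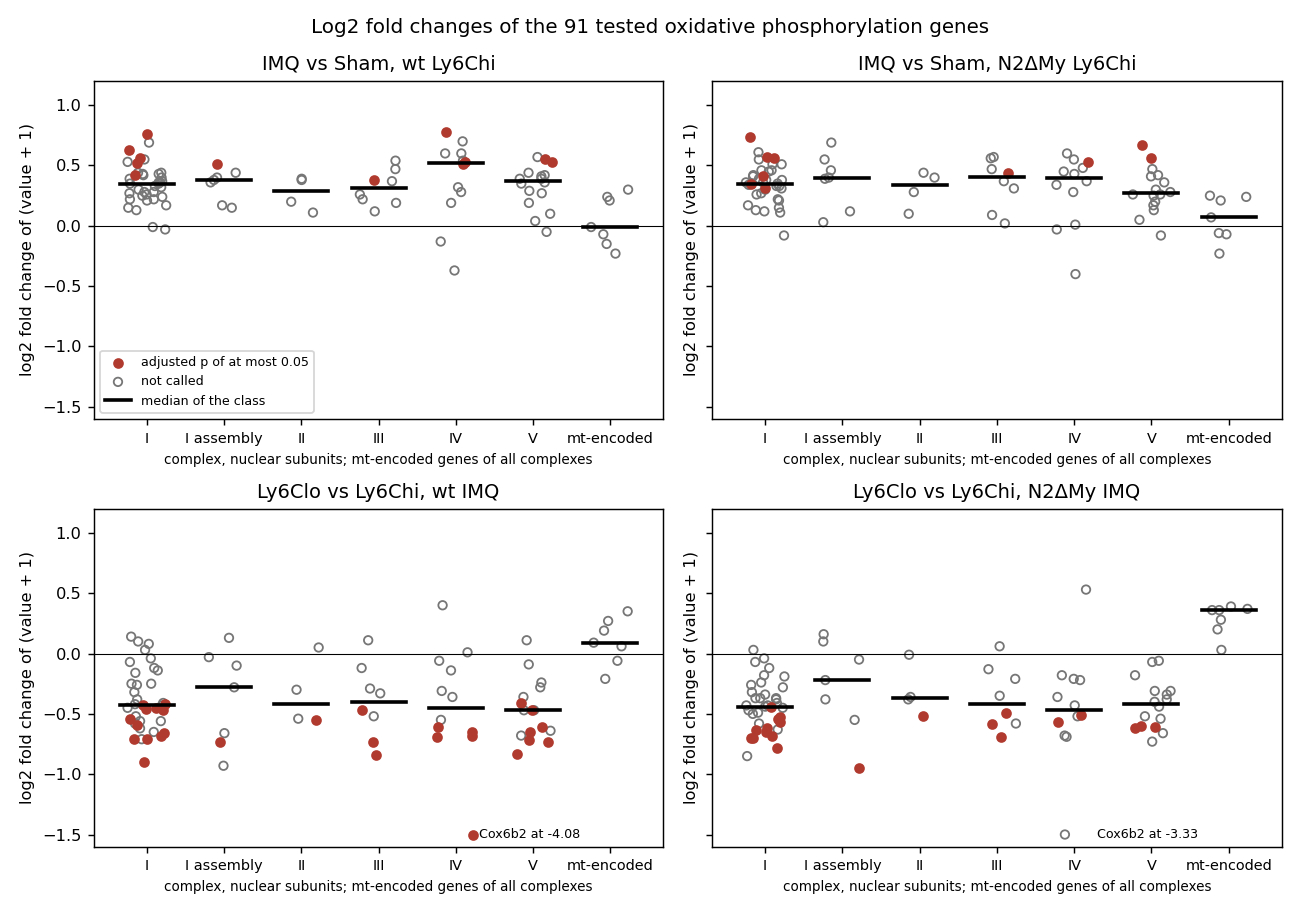
Log2 fold changes of normalized count + 1 for the 91 tested genes by complex, in 4 comparisons of 4 against 4 libraries (one point per gene; filled, adjusted p of at most 0.05; bar, median). Medians of the nuclear complexes lie above 0 for IMQ against Sham and below 0 for Ly6Clo against Ly6Chi, and those of the mt-encoded genes lie between -0.01 and 0.36; Cox6b2 lies below the axis at -4.08 and -3.33 and is drawn at its edge.

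Values within the library series kept this direction, with medians over the nuclear genes of 0.35 in the first and 0.41 in the second series of wt cells and 0.25 and 0.45 in N2ΔMy cells. In wt and N2ΔMy cells 75 and 66 of the 84 nuclear genes differed in the same direction in both series. The called genes all did (12 of 12 and 10 of 10), which their choice on the same libraries favours. A list of 8 neutrophil genes moved with the treatment: it summed to 708 to 1386 in the 8 Sham libraries and to 3101 to 8578 in the 8 Ly6Chi IMQ libraries, with 1 of the 8 genes reaching 50 after Sham and 3 after IMQ. Mmp8 (19 to 3660 over the 24 libraries), S100a8 (0 to 3443) and S100a9 (0 to 1739), which monocytes also express, made up most of the sum, while Ltf, Retnlg, Ngp and Camp reached 53, 45, 43 and 8 at most and the defining marker Ly6g 1. Dendritic cell genes summed to 483 to 706 after Sham and 250 to 434 after IMQ in wt cells. In N2ΔMy cells they summed to 545 to 897 and 287 to 406. Macrophage genes went from 3740 to 4538 to 2298 to 3106 in wt and from 3431 to 5005 to 3367 to 4293 in N2ΔMy cells. Platelet genes went from 44 to 103 to 69 to 179 in wt and from 31 to 74 to 88 to 172 in N2ΔMy cells. The part of these lists in the result was not tested. Single libraries decided some calls: 5 of 12 and 5 of 10 genes stayed called whichever library was left out. The wt count was 7 without Sham replicate 2, Sham replicate 4 or IMQ replicate 4 and 5 without IMQ replicate 2, and the N2ΔMy count was 5 without Sham replicate 1 or IMQ replicate 4 and 6 without Sham replicate 3 or IMQ replicate 3.

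To describe the 2 blood subsets under inflammation, Ly6Clo cells were compared with Ly6Chi cells of IMQ-treated mice. The Ly6Chi libraries are the same as in the comparison with Sham, so these comparisons are not independent of the ones above. Nuclear genes were lower in Ly6Clo cells by a median log2 fold change of 0.45 in wt (-0.45, or 0.733-fold) and of 0.43 in N2ΔMy mice (-0.43, or 0.742-fold), against -0.01 over all genes, with 74 and 79 of the 84 genes lower. In wt mice 29 genes fell and 0 rose, 31.9% of the 91 tested, against 17.3% of all genes that fell and 35.6% called in either direction. In N2ΔMy mice 21 fell and 0 rose, 23.1%, against 11.8% and 24.9%. With the replicate block 54 fell and 3 rose in wt (25.2% and 25.2% of all genes) and 48 fell and 5 rose in N2ΔMy mice (17.4% and 17.9%). A log2 fold change of -0.6 or below was also reached by 18 and 12 of the called genes, against 12.7% and 8.38% of all genes. Of the 91 genes 18 (19.8%) fell in both genotypes, 62.1% of the 29 and 85.7% of the 21, against 9.72% of all genes, 56.1% of those that fell in wt and 82.1% of those that fell in N2ΔMy mice. With the block 46 (50.5%) fell in both, against 1689 of all 11230 genes tested. Called genes came from every nuclear complex, 12, 1, 1, 3, 5 and 7 genes of complex I, its assembly factors and complexes II to V in wt, and 11, 1, 1, 3, 2 and 3 in N2ΔMy mice. With the block 24, 1, 3, 6, 8 and 12 fell in wt and 21, 1, 2, 5, 8 and 11 in N2ΔMy mice.

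In complex V, Atp5h (chromosome 11, 115415689 to 115419962, minus strand), subunit d of the stalk, fell in both genotypes. Its normalized counts were 2163, 2727, 2209 and 2767 in wt Ly6Chi and 1320, 1666, 1395 and 1585 in wt Ly6Clo libraries. In N2ΔMy mice they were 2211, 2802, 2858 and 2922 in Ly6Chi and 1905, 1817, 1896 and 1465 in Ly6Clo libraries. The subsets did not overlap in either genotype, and the log2 fold changes were -0.72 (SE 0.12, adjusted p = 0.000699) and -0.61 (SE 0.12, adjusted p = 0.00425). Atp5j fell by 0.61 in wt (SE 0.11, adjusted p = 0.00158) and by 0.62 in N2ΔMy mice (SE 0.12, adjusted p = 0.00281), to 1074, 1111, 1085 and 1192 in wt and 1382, 1223, 1153 and 1224 in N2ΔMy Ly6Clo libraries. These Ly6Clo values lay close to the 1146 to 1235 of Ly6Chi cells after Sham. Atp5e, the epsilon subunit of the central stalk, fell by 0.73 in wt (SE 0.19, adjusted p = 0.0113) and was at -0.31 in N2ΔMy mice (SE 0.24, adjusted p = 0.381), and Atp5c1, its gamma neighbour, fell by 0.47 in wt and 0.60 in N2ΔMy mice (SE 0.11 and 0.12, adjusted p = 0.00692 and 0.00449).

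In complex I the accessory subunit Ndufc2 fell by 0.90 in wt mice, from 319, 373, 407 and 515 in Ly6Chi to 195, 214, 211 and 230 in Ly6Clo libraries (SE 0.16, adjusted p = 0.00105), and by 0.68 in N2ΔMy mice (SE 0.21, adjusted p = 0.0357). Ndufa10 and Ndufa4 each fell by 0.71 in wt (SE 0.16 and 0.14, adjusted p = 0.00526 and 0.00301) and by 0.62 and 0.53 in N2ΔMy mice (adjusted p = 0.00497 and 0.0321). The accessory subunits Ndufb5 and Ndufb11 fell by 0.78 and 0.70 in N2ΔMy (SE 0.15 and 0.11, adjusted p = 0.00251 and 0.000989) and by 0.66 and 0.59 in wt mice (adjusted p = 0.0023 and 0.005). Ndufs3, a core subunit of the arm that leads electrons to ubiquinone, fell by 0.70 in N2ΔMy mice (SE 0.19, adjusted p = 0.0194) and was at -0.43 in wt (SE 0.19, adjusted p = 0.098). Exons of Ndufb11 overlap Rbm10 on the opposite strand, with means of 605 and 523 over the 24 libraries, and those of Ndufb5 overlap Mrpl47, a gene of the mitochondrial ribosome, with 440.2 against 63.71. Ndufaf7 (chromosome 17, 78937135 to 78948052, plus strand) was the assembly factor called in both genotypes, at 288, 321, 324 and 269 in wt and 266, 239, 240 and 234 in N2ΔMy Ly6Clo libraries against 382 to 556 in Ly6Chi libraries after IMQ. It fell by 0.73 in wt (SE 0.13, adjusted p = 0.00104) and by 0.95 in N2ΔMy mice (SE 0.14, adjusted p = 0.00048).

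In complex II, Sdhc, which anchors the enzyme in the membrane, fell by 0.55 in wt and 0.52 in N2ΔMy mice (SE 0.13 and 0.15, adjusted p = 0.00842 and 0.0237). In complex III, Uqcrfs1, the Rieske iron-sulfur protein, fell by 0.47 and 0.49 (SE 0.11 in both, adjusted p = 0.00516 and 0.0097). The small subunit Uqcr11 fell by 0.73 and 0.58 (SE 0.19 and 0.16, adjusted p = 0.0135 and 0.0247), and Uqcrq, which lies next to cytochrome b, fell by 0.84 and 0.69 (SE 0.22 and 0.16, adjusted p = 0.0113 and 0.00802). In complex IV, Cox4i1 fell by 0.61 in wt and 0.57 in N2ΔMy mice (SE 0.14 and 0.15, adjusted p = 0.00656 and 0.0208), in wt with 1653, 1967, 2001 and 2645 in Ly6Chi and 1123, 1397, 1386 and 1460 in Ly6Clo libraries, and Cox5b fell by 0.68 and 0.51 (SE 0.19 and 0.16, adjusted p = 0.0159 and 0.0415). Of the 10 and 5 nuclear genes that were higher in Ly6Clo cells, Cox5a was the 1 called with the replicate block, at 0.40 in wt and 0.53 in N2ΔMy mice (adjusted p = 0.00491 and 0.00261 with the block, 0.105 and 0.204 without it). Its normalized counts in wt were 414, 390, 567 and 601 in Ly6Chi and 500, 640, 670 and 773 in Ly6Clo libraries, so that the subsets overlapped while each Ly6Clo library was above the Ly6Chi library of the same number.

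Cox6b2 (chromosome 7, 4751792 to 4753094, minus strand) had the widest difference of the group. Its normalized counts were 30, 23, 99 and 126 in wt Ly6Chi and 0, 0, 8 and 12 in wt Ly6Clo libraries after IMQ. In N2ΔMy mice they were 38, 19, 126 and 99 against 0, 0, 43 and 21. Replicates 3 and 4 were higher than replicates 1 and 2 in all 6 groups. The log2 fold change was -4.08 in wt (SE 0.96, adjusted p = 0.00687) and -3.33 in N2ΔMy mice (SE 1.22, adjusted p = 0.0697, and 0.00242 with the replicate block), and with libraries at 0 its size depends on the pseudocount of 1. Cox6b1, the common form of this subunit, differed by -0.14 and -0.22 and was not called.

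**Figure D4:**
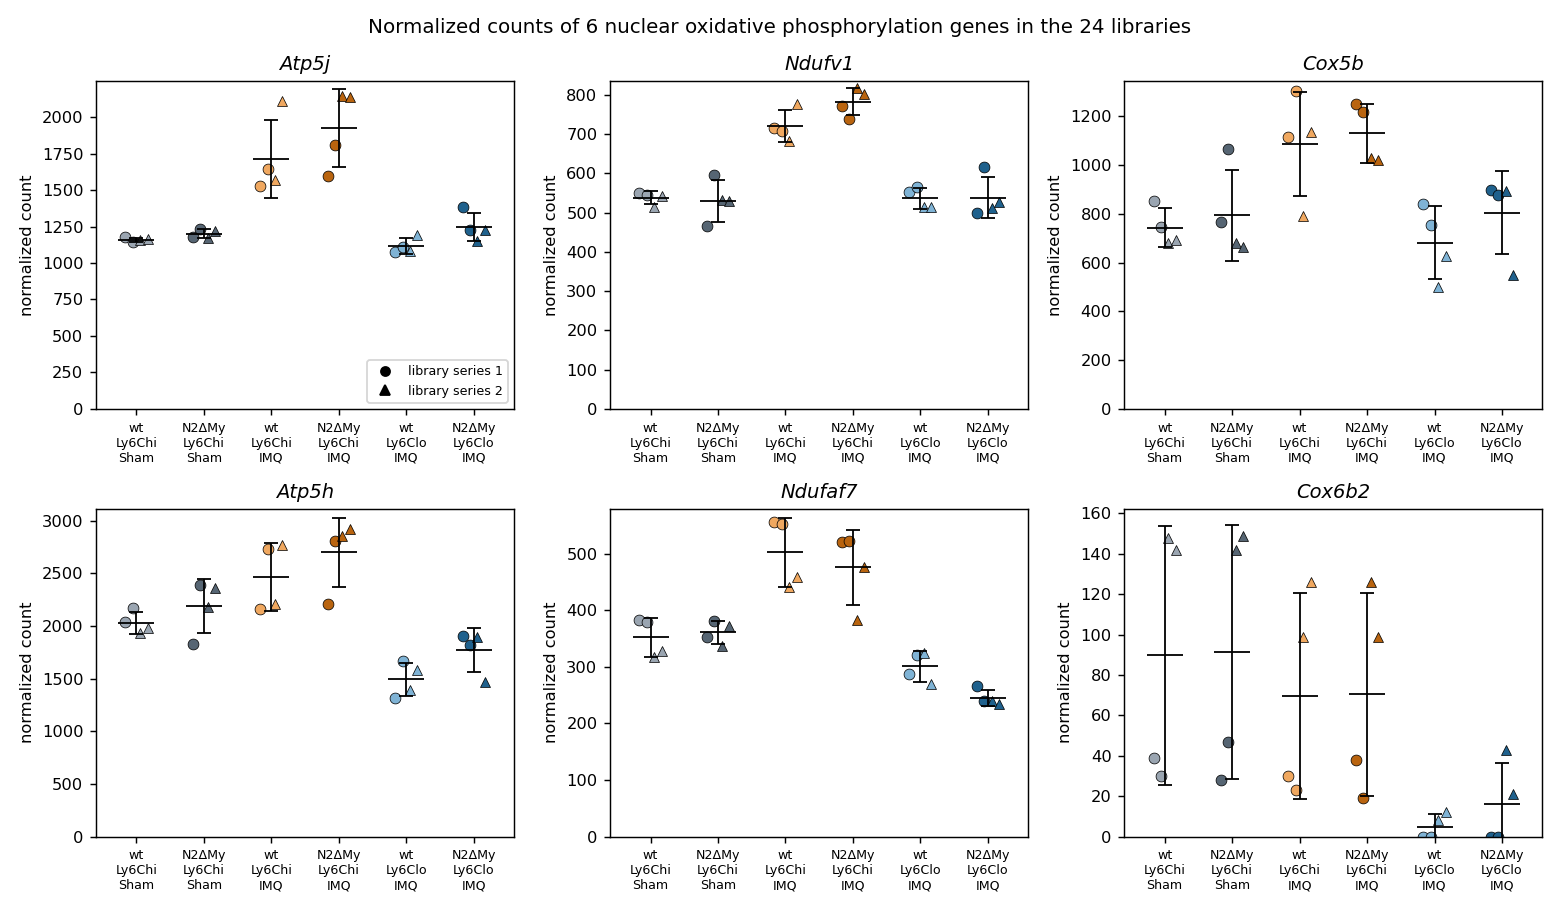
Normalized counts of Atp5j, Ndufv1, Cox5b, Atp5h, Ndufaf7 and Cox6b2 in the 24 libraries (circles, library series 1; triangles, library series 2), with mean and SD of 4 libraries per group. Atp5j, Ndufv1 and Cox5b were called for treatment and for subset in both genotypes, and Cox6b2 ranges from 0 in 4 Ly6Clo libraries to 149.

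No mitochondrially encoded gene was called lower in Ly6Clo cells. Their median log2 fold change was 0.09 in wt (-0.09 after quantile normalization) and 0.36 in N2ΔMy mice, where 7 of 7 were higher in Ly6Clo cells. No gene passed the test in either genotype. In N2ΔMy mice 4 of 7 had an unadjusted p under 0.05, as did 37.1% of all genes, and mt-Nd2, mt-Nd4, mt-Nd6 and mt-Cytb were called with the replicate block, which called 17.9% of all genes higher. Mt-Nd6 (M:13552-14070, minus strand) was at 339, 412, 408 and 386 in N2ΔMy Ly6Chi and 416, 692, 467 and 489 in Ly6Clo libraries (log2 fold change 0.39, SE 0.16, adjusted p = 0.0977, and 0.0265 with the block). Mt-Cytb (M:14145-15288, plus strand) was at 9209, 9296, 10488 and 14684 against 11691, 14694, 15819 and 13674 (0.37, SE 0.16, adjusted p = 0.111, and 0.0429 with the block). In wt mice mt-Nd2 and mt-Nd6 were called with the block, at 0.27 and 0.35 (adjusted p = 0.0146 and 0.0285), beside 25.2% of all genes called higher. Of the 91 genes 3 were called higher in wt mice with the block and 1 with the library series as a covariate. In N2ΔMy mice 5 were called higher in each of these fits. Mt-Co1 differed by -0.06 in wt and 0.20 in N2ΔMy mice and mt-Nd5 by -0.21 and 0.03, with SEs of 0.14 to 0.28, and neither was called in any fit. In Ly6Chi cells after IMQ, the cells compared against here, 7 of 7 were lower in N2ΔMy than in wt mice (median -0.09). The difference between nuclear and mitochondrially encoded genes was not tested as such.

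Within the library series the nuclear medians were -0.35 and -0.47 in wt and -0.30 and -0.55 in N2ΔMy mice. In wt and N2ΔMy mice 73 and 68 of the 84 nuclear genes had the same direction in both series. All 29 and 21 called genes kept their direction, which their choice on the same libraries favours. Of these, 21 and 12 stayed called whichever library was left out, and the N2ΔMy count was 13 without Ly6Chi IMQ replicate 3. The neutrophil list summed to 34 to 302 in wt and 178 to 317 in N2ΔMy Ly6Clo libraries, below the Ly6Chi libraries. Macrophage genes summed to 2298 to 3106 in Ly6Chi and 3963 to 6133 in Ly6Clo libraries of wt mice after IMQ. In N2ΔMy mice they summed to 3367 to 4293 and 7748 to 11896. The part of these lists in the result was not tested. Gene length moved with the values in some comparisons: other genes of up to 1000 bases of exon differed by medians of 0.19 and 0.04 after IMQ in wt and N2ΔMy cells and of -0.24 and -0.23 between subsets. The 18 nuclear members of up to 1000 bases had medians of 0.39, 0.4, -0.54 and -0.45 in the same order. In the next bin, up to 1500 bases, members were at 0.28, 0.31, -0.5 and -0.47 and other genes at 0.18, 0.13, -0.12 and -0.1. In that up to 2500 bases, members were at 0.4, 0.38, -0.42 and -0.42 and other genes at 0.09, 0.08, -0.06 and -0.07. Over 2500 bases, the 24 nuclear members were at 0.37, 0.36, -0.37 and -0.35 and the 8496 other genes at -0.02, -0.02, 0.02 and 0.02. Bins follow merged exons, and the part of length in the result was not tested.

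To ask whether Notch2 deficiency bears on these genes, N2ΔMy and wt cells were compared in each subset and treatment. No gene of the group was called in any of the 3 comparisons. In Ly6Clo cells, where 720 genes (6.41%) were called, 5 of the 91 had an unadjusted p under 0.05, against 19.5% of all genes, and 15 of the 91, against 30.3%, with the replicate block. With the block 2 of the 91 were called, against 16.5% of all genes: Uqcrb and Uqcr10, small subunits of complex III, were higher in N2ΔMy cells by 0.37 and 0.53 (SE 0.18 and 0.26, adjusted p = 0.0271 and 0.0439 with the block and 0.284 and 0.288 without). With the library series as a covariate in place of the block 0 of the 91 were called, against 1480 of 11230 genes. The smallest unadjusted p in these cells belonged to Cox7a2l, grouped with complex IV by symbol, with 798, 915, 789 and 826 in wt and 723, 684, 746 and 674 in N2ΔMy libraries (log2 fold change -0.23, SE 0.09, adjusted p = 0.201), followed by Ndufa4 at 0.35 (SE 0.15, adjusted p = 0.207) and the accessory subunit Ndufa13 at 0.28 (SE 0.12, adjusted p = 0.233). In Ly6Chi cells after IMQ 3 genes in all were called (0.0267%), 1.23% with the block, and 0 of the 91 had an unadjusted p under 0.05, against 6.05% of all genes (8 of the 91 against 14.8% with the block). The closest were Ndufaf6 at -0.75 (SE 0.40), Ndufb5 at 0.23 (SE 0.12) and Ndufb10 at 0.19 (SE 0.11). In Ly6Chi cells after Sham 2 genes were called in all (0.0178%), 0.0534% with the block, and 2 of the 91 had an unadjusted p under 0.05, against 5.21% of all genes (14 of the 91 against 12.2% with the block). They were Ndufa8 at 0.29 (SE 0.10, adjusted p = 0.921) and Ndufb6 at 0.60 (SE 0.24, adjusted p = 0.925), with Ndufaf6 next at -0.82 (SE 0.42).

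Nuclear medians in these comparisons were 0.10 in Ly6Clo cells, 0.12 in Ly6Chi cells after IMQ and 0.10 in Ly6Chi cells after Sham, with 61, 71 and 69 of 84 genes higher in N2ΔMy cells, against medians of 0.00 to 0.01 over all genes. The same medians were 0.09, 0.04 and 0.10 in the first and 0.13, 0.17 and 0.13 in the second library series, and 58, 50 and 54 of the 84 genes had the same direction in both series. Medians of the 7 mitochondrially encoded genes tested were 0.09, -0.09 and -0.13 in the same order, with 6, 0 and 0 higher in N2ΔMy cells. They were 0.25, 0.01 and 0.01 in the first and -0.07, -0.21 and -0.21 in the second library series. Whether the response to IMQ differed between genotypes was tested as an interaction in limma: 0 of 91 genes and 0.0% of all genes were called, and 0 of 91 had an unadjusted p under 0.05, against 1.58% of all genes (0 against 3.38% with the block). The smallest p of the group there was 0.219 for Ndufb6, an accessory subunit of complex I (-0.52, SE 0.41). The interaction of genotype and subset under IMQ called 0 of 91, against 1.06% of all genes (0 against 3.05% with the block). An unadjusted p under 0.05 was reached by 0 of 91, against 8.33% of all genes (1 against 13.2% with the block), and the smallest p was 0.0754 for Cox7a2l (-0.38, SE 0.20). A p that misses the limit does not show that the genotypes are alike. Macrophage markers summed to 7748 to 11896 in N2ΔMy and 3963 to 6133 in wt Ly6Clo libraries, with 6 and 2 of 7 genes reaching 50, and the Ly6Chi markers also differed there, as given above.

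An F-test over the 6 groups called 29 of the 91 genes at an adjusted p of at most 0.01, below the 43.0% of all genes that it called. By class these were 13 of complex I, 1 assembly factor, 2 of complex II, 4 of complex III, 4 of complex IV and 5 of complex V, and none was mitochondrially encoded. With the replicate block it called 60 of 91, against 57.1% of all genes, among them mt-Cytb (adjusted p = 0.00406).

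Promoters of nuclear genes of this group are known to hold sites of a few regulators, so the 250 bases before the start were searched on both strands for GCGCATGC (NRF1), CCGGAAG (ETS factors such as GABPA), CAAGGTCA (ERR) and AAGATGGCG (YY1). RefSeq promoters on GRCm38.p6 matched 76 of the 92 genes. GCGCATGC stood in 9 of 72 tested genes with a promoter (12.5%), against 5.47% of 7967 tested genes and 2.56% of all 27025 genes. CCGGAAG stood in 13 (18.1%), against 17.3% and 7.83%, CAAGGTCA in 3 (4.17%), against 1.2% and 1.51%, and AAGATGGCG in 2 (2.78%), against 1.61% and 0.71%. Shown are stretches around a match in 4 genes that were called with no overlap of libraries and whose match lies outside annotated exons, from 5′ to 3′ of the gene with the match in capitals. The last one holds GCGCATGC on both strands, overlapping by 6 bases.
Atp5g3, ERR, chr2:73911346-73911403, minus strand: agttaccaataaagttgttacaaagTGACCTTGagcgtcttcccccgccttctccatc
Uqcr11, ETS, chr10:80406856-80406912, minus strand: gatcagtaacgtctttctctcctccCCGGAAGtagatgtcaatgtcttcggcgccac
Atp5e, ETS, chr2:174464172-174464228, minus strand: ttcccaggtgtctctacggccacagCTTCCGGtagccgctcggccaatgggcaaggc
Ndufa11, NRF1, chr17:56717686-56717736, plus strand: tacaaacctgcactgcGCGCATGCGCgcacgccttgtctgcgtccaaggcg
These 4 genes were described with the changes above, Atp5g3 and Ndufa11 with the rise after IMQ and Uqcr11 and Atp5e with the fall in Ly6Clo cells. A match describes letters in a window and is not a measured site.

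Other genes of mitochondrial energy metabolism were followed from lists. Of 76 tested genes for proteins of the mitochondrial ribosome, which translates the mitochondrially encoded subunits, 5 rose and 0 fell with IMQ in each genotype, which is near the 6.95% and 6.73% of all genes that rose. In Ly6Clo cells 1 rose and 19 fell in wt and 0 rose and 12 fell in N2ΔMy mice, where 17.3% and 11.8% of all genes fell. Mrpl2 rose by 0.71 after IMQ in wt cells (SE 0.16, adjusted p = 0.0121), and Mrpl38 fell from a mean of 303.2 to 141.2 in wt Ly6Clo cells (adjusted p = 0.000379). With the replicate block 15 and 11 rose with IMQ (12.6% and 10.4% of all genes), and 32 and 21 fell in Ly6Clo cells (25.2% and 17.4% of all genes). Of 18 genes of the TCA cycle, 3 rose and 2 fell with IMQ in wt and 2 rose and 1 fell in N2ΔMy cells, against 6.95% and 8.65% and 6.73% and 7.02% of all genes. With the replicate block 6 rose and 2 fell in wt (12.6% and 13.7% of all genes) and 2 rose and 1 fell in N2ΔMy cells (10.4% and 9.83%). Citrate synthase (Cs), malate dehydrogenase (Mdh2) and Idh2 passed the test in N2ΔMy cells, at 0.41, 0.49 and -0.40 (SE 0.08, 0.09 and 0.10, adjusted p = 0.00809, 0.00568 and 0.0241). In Ly6Clo cells 5 and 3 of the 18 fell and 1 and 1 rose in wt and N2ΔMy mice, against 17.3% and 11.8% of all genes that fell and 35.6% and 24.9% called in either direction. With the block 11 and 4 fell and 1 and 1 rose, against 25.2% and 17.4% that fell. Fumarase (Fh1) was among those that fell in wt, where it fell from a mean of 511.2 to 237.5 (-1.09, SE 0.15, adjusted p = 0.000218). In N2ΔMy against wt Ly6Clo cells 1 of the 18 was called (2 with the block, against 16.5% of all genes), Idh3a, higher by 0.49 (SE 0.13, adjusted p = 0.0439).

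The counts of the smaller lists that follow stand beside the same shares of all genes, 6.95% and 6.73% higher and 8.65% and 7.02% lower with IMQ and 17.3% and 11.8% lower in Ly6Clo cells, where 35.6% and 24.9% were called in either direction, and are a description only. Called higher in Ly6Clo cells were 2057 and 1463 of all 11230 genes tested. With the replicate block the shares were 12.6% and 10.4% higher and 13.7% and 9.83% lower with IMQ, and 25.2% and 17.9% higher and 25.2% and 17.4% lower in Ly6Clo cells. Of 8 tested genes for carriers, uncoupling and inhibition 1 and 2 rose with IMQ in wt and N2ΔMy cells (5 and 5 with the block, where 1 and 0 fell) and 2 and 1 fell in Ly6Clo cells (6 and 5 with the block). Slc25a4, which exchanges ADP and ATP across the inner membrane, fell from 916.5 to 232.5 in wt Ly6Clo cells (log2 fold change -2.01, SE 0.20, adjusted p = 2.4e-05) and from 984.8 to 404.5 in N2ΔMy cells (-1.29, SE 0.12, adjusted p = 2e-05), and it was higher in N2ΔMy than in wt Ly6Clo cells by 0.84 (SE 0.21, adjusted p = 0.0417). Gpd2, which feeds electrons from glycerol phosphate into ubiquinone and belongs to a list of 16 tested genes of electron transfer (1 and 1 called higher with IMQ, 3 and 2 higher and 1 and 0 lower in Ly6Clo cells, and with the block 2 and 2, 6 and 3, and 3 and 2), went the other way to complex I and was higher in Ly6Clo cells by 0.92 in wt and 0.74 in N2ΔMy mice (SE 0.13 and 0.11, adjusted p = 0.000213 and 0.000566); it also rose after IMQ by 0.60 and 0.46 (SE 0.13 and 0.12, adjusted p = 0.00992 and 0.0283). Of 10 regulator genes tested 2 and 1 fell with IMQ, also with the block, and in Ly6Clo cells 3 and 2 fell and 2 and 1 rose (4 and 2 fell and 2 and 4 rose with the block). Pprc1, a coactivator of mitochondrial genes, fell after IMQ by 0.63 and 0.55 (SE 0.14 and 0.13, adjusted p = 0.0112 and 0.0196), and Esrra, which encodes an estrogen-related receptor, was higher in Ly6Clo cells by 0.74 in wt and 0.69 in N2ΔMy mice (SE 0.17 and 0.16, adjusted p = 0.00532 and 0.0104). In N2ΔMy Ly6Clo cells Pprc1 and Myc were higher than in wt by 0.73 and 2.68 (SE 0.12 and 0.53, adjusted p = 0.00585 and 0.0133). Of 22 genes for upkeep and transcription of mitochondrial DNA 7 fell and 1 rose in wt Ly6Clo cells, among them Lrpprc, which stabilizes mitochondrial mRNAs (-0.76, SE 0.13, adjusted p = 0.00094), 1 fell and 1 rose in N2ΔMy Ly6Clo cells, and 1 fell with IMQ in wt. With the block 8 and 4 fell and 1 and 1 rose in wt and N2ΔMy Ly6Clo cells, and with IMQ 1 and 1 fell and 0 and 1 rose. Of 36 assembly factors outside the name rule 0 passed with IMQ in either genotype, 3 fell and 1 rose in wt and 2 fell in N2ΔMy Ly6Clo cells (with the block 0 and 2 rose with IMQ, and 4 and 4 fell and 3 and 0 rose in Ly6Clo cells), with Bcs1l, which inserts the Rieske protein, at -1.48 and -1.44 (SE 0.34 and 0.36, adjusted p = 0.00578 and 0.0134), and of 6 other mitochondrially encoded transcripts 0 passed in any comparison.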

How the data were processed

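The authors sequenced libraries from total RNA of sorted monocytes (stranded kit, 75-base single reads) and processed them with nf-core/rnaseq; the submitters' processing notes list bcl2fastq, Trim Galore 0.4.4, STAR 2.5.3a, DESeq2 and GRCm38.p6, and the annotation was GENCODE M17. The deposited table holds DESeq2-normalized counts, rounded by the authors to whole numbers and treated here as scores, not as raw counts; its columns with the authors' own comparison (fold change, standard error, Wald statistic and p-values) were not used. The counting tool, its strand setting and the raw depth are not given in the sources used here. Inferred reads were 9522720 to 19759572 per library, median 14975793, and bound the precision of low values.

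The 11230 genes that reached 50 in any of the 24 libraries were tested with limma 3.58.1 (R 4.3.3, eBayes with trend, two-sided) on log2(value + 1), using the 8 libraries of the groups compared, 16 for interactions and 24 for the F-test. The limit for calls was 0.05 after Benjamini-Hochberg adjustment, or 0.01 for the F-test; fold changes are on the log2(value + 1) scale and understate those of low genes. Groups came from the sample titles. Same-numbered libraries of different groups varied together (correlation of deviations from group means 0.16 to 0.619 over 60 pairs), so a fit with the replicate number as a block was run as an alternative. Differently numbered libraries of the same series were not correlated, so a pairing by number cannot be told apart from the series. Levels per kilobase use the deposited length, which equals the merged exons for all 53715 genes. At most 1.57% of tested genes had the same value in 2 libraries. Alternatives were scaling, filter, pseudocount, variance model, covariates and single libraries. Genes named in each class are up to 3 called members per direction with the largest fold change and no overlap of libraries, 3 with the smallest p where fewer than 3 were called, all 13 mitochondrially encoded genes, isoform sets, and up to 4 genes of the other lists by the same rule. Uqcrb, Uqcr10, Atp5s and genes listed for their level were named after their values were seen. Members and lists were chosen with earlier results of these data known. Scripts were tested on simulated data.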

Additional observations from a re-analysis of the deposited data

Results flagged for a closer look

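Of 132 groups of 4 libraries examined for the values reported (classes and genes), 5 held 1 library far from the other 3 by Dixon's criterion, where chance gives about 1 in 20. Complex II genes held 0.029% of the normalized counts in N2ΔMy Ly6Chi IMQ replicate 1 and 0.0316% to 0.0319% in the other replicates. Atp5h was at 2211 in the same library and at 2802 to 2922 in the others. Cox5b was at 551 in N2ΔMy Ly6Clo replicate 4 and at 876 to 897 in the others. Ndufv1 was at 513 in wt Ly6Chi Sham replicate 3 and at 543 to 549 in the others. Mt-Nd1 was at 8003 in wt Ly6Chi Sham replicate 1 and at 7056 to 7122 in the others.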

How the results depend on the processing

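Counts of called genes depended on the fit. In the order IMQ against Sham in wt and N2ΔMy Ly6Chi cells, then Ly6Clo against Ly6Chi cells in wt and N2ΔMy mice, 12, 10, 29 and 21 calls became 41, 38, 57 and 53 with the replicate block and 43, 39, 49 and 53 with the library series as a covariate. With no filter on low values they were 3, 5, 14 and 12, and without limma's trend the N2ΔMy count for IMQ was 5. The block gave 2 calls in place of 0 for genotype in Ly6Clo cells, where the series as a covariate gave 0. The F-test gave 60 with the block and 57 with the series in place of 29. The cause of these shifts was not tested. Leaving out 1 library gave 5 to 13, 5 to 12, 23 to 32 and 13 to 28 calls, 24 to 30 for the F-test and 0 for each genotype comparison and interaction. All 12, 10, 29 and 21 genes called without the block were also called with it, and it changed no other comparison's calls. No result reversed. The 28 medians recomputed with other scalings moved by less than the replicate spread, but 2 medians of mitochondrially encoded genes near 0 changed sign with quantile normalization (-0.01 to 0.03 for IMQ in wt and 0.09 to -0.09 for subsets in wt). Of 421 values of single genes under these alternatives 397 stayed on their side of the limit and 24 lost the call. With single libraries left out, 334 such values stayed and 42 lost the call.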
